A study of Rattus norvegicus with 17 samples.

Results

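The genes described are 31 xenobiotic and drug metabolism enzymes and transporters of the rat kidney, measured after sub-total nephrectomy (SNx) and in kidneys of control rats. They were chosen by symbol, as members of the cytochrome P450 (Cyp), flavin monooxygenase (Fmo), carboxylesterase (Ces), epoxide hydrolase (Ephx), aldo-keto reductase (Akr), aldehyde dehydrogenase (Aldh1), quinone reductase (Nqo), glutathione S-transferase (Gst), glutathione peroxidase (Gpx), glutamate-cysteine ligase (Gcl), sulfotransferase (Sult) and ABC transporter families. Symbols exist for 2007 of the 23487 identifiers in the count table, because the study pairs them only for genes it lists, and 34 of the 2007 matched before Cyp1a1, Cyp1b1 and Gstz1 were set aside. No symbol of the Ugt, Nat8, Adh or Gsr families was among them, and family members without a symbol are not described. The list of study 1, which the methods describe as other rats, was the only source for 27 members. The other 4 (Cyp2d4, Fmo5, Gstt2 and Nqo2) also or only came from the list of study 2, which is assumed to rest on rats analysed here. For these 4 the values in SNx and NoOp are a description, and no test between the groups is given.

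The libraries are bulk RNA-seq of kidney from 12 SNx rats and 5 controls, taken as 1 library per rat. SNx removes part of the right kidney and later the whole left kidney of male Wistar Han rats, after which the remnant fails progressively, and the study used it as a model of chronic kidney disease. The controls are labelled NoOp, while the methods describe sham-operated controls for study 2, and no agent or allele is named for either group. The age of the rats, the time after surgery of each rat and whether it had reached the functional threshold set for the study are not given in the labels. Total counts were 19210434 to 30784070 in SNx (median 22709319) and 30454170 to 43876369 in NoOp (median 32745316). Levels below are log2 CPM (counts scaled to a fixed library total), scaled by TMM with a prior count of 2, as mean ± SD over rats, and they rank rats for a gene but not genes against each other. Fold changes are ratios of mean counts from edgeR's quasi-likelihood fit, with p-values adjusted by the Benjamini-Hochberg method over all 15438 genes tested (FDR < 0.05). In whole tissue, fewer cells of a type and less RNA per cell cannot be told apart.

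Drug metabolism proceeds in steps. Cytochromes P450 and flavin monooxygenases oxidise foreign and endogenous compounds, hydrolases and reductases open or reduce reactive groups, and transferases then attach glutathione, sulfate or sugar so that the product can be exported by transporters into bile or urine. In the kidney most of this machinery sits in the epithelium of the proximal tubule, the segment that also reabsorbs most of the filtrate and secretes organic anions and cations. Glutathione peroxidases remove peroxides with the same cofactor, and glutamate-cysteine ligase makes its precursor.

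Most members were lower in SNx. By sign, 27 members had a lower mean count in SNx, with log2 fold changes from -0.43 (Abcb6) to -3.84 (Cyp8b1) and a median of -1.32. The 4 that were higher were Ces5a, Gpx2, Gstm1 and Abcg1. The test called 58.0% of all genes in either direction. Of the 27 members with a symbol from study 1 alone, 20 (74.1%) passed it lower in SNx, against 27.7% of all genes tested and 42.3% of the 1528 tested genes that the study names from study 1 alone. In the other direction 4 (14.8%) passed, against 30.3% of all genes and 49.7% of those named genes. Ces5a is among the 4 and Cyp8b1 among the 20. Both passed the count filter through the group in which they are higher, so their calls are not separate support. Gsta1, Sult1b1 and Ephx1 passed in neither direction. The median log2 fold change of these 27 members was -1.10, while that of all genes was 0.02.

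**Figure D1:**
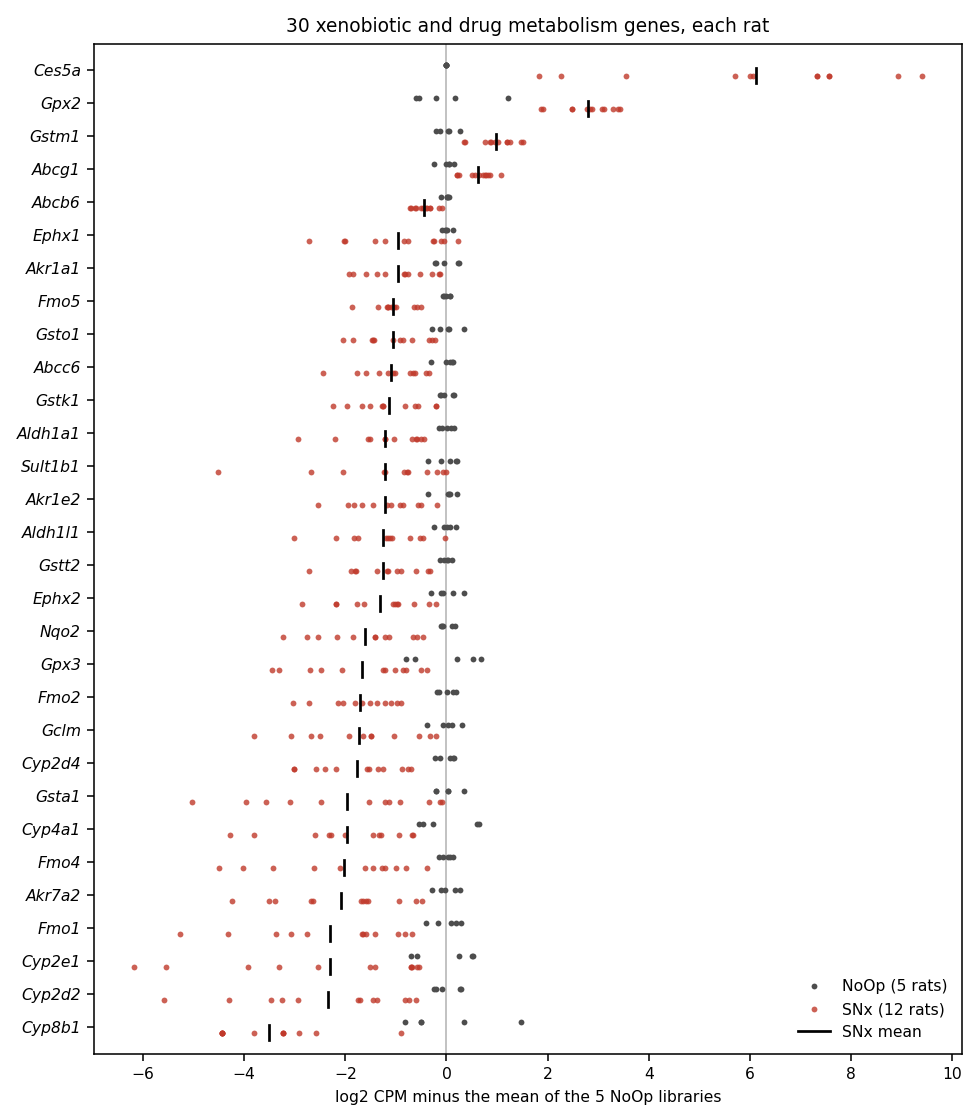
Log2 CPM of 30 members in each rat, minus the mean of the 5 NoOp rats (x axis), with NoOp in grey, SNx in red and the SNx mean as a black bar. Ces5a, Gpx2, Gstm1 and Abcg1 lie to the right of 0 in all 12 SNx rats, and the SNx means of the other members lie to the left of 0.

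Members that carry the same short element in their promoter window differed in direction. RefSeq sequences of assembly GRCr8, from 250 bases before to 50 bases after the start of the gene, were found by symbol for 25 members, and Abcg1, Cyp4a1, Ephx2, Fmo4 and Gstt2 were among the others. The core of the antioxidant response element, the site of the stress regulator NRF2, was searched as TGACNNNGC on both strands. It lay in the windows of 4 members, Gpx2, Gclm, Gsta1 and Cyp8b1, and in 12.1% of all 33469 windows of this length. Gpx2 was higher in SNx, Gclm and Cyp8b1 were lower, and Gsta1 did not pass the test. The windows of Gpx2 (chr6:101229984-101230283, minus strand) and Gclm (chr2:213031885-213032184, plus strand) are printed because they hold the element and moved in opposite directions. Capitals mark the matched core, read on the strand of the gene.
Gpx2: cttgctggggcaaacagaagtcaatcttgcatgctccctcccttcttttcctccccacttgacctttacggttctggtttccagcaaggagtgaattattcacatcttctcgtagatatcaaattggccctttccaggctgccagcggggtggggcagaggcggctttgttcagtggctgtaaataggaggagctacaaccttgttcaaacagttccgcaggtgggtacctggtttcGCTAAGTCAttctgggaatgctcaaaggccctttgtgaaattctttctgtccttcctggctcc
Gclm: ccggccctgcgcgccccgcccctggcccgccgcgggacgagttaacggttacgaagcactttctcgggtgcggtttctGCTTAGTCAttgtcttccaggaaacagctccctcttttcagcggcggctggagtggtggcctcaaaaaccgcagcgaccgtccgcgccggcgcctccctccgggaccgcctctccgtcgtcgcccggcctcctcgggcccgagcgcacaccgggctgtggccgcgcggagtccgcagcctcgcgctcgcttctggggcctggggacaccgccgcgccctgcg
The capitals in Gpx2 begin 13 bases before the start and those in Gclm 172 bases before it, both as the reverse complement of the searched letters. The xenobiotic response element core GCGTG, the site of the aryl hydrocarbon receptor, was found in 5 of the 25 windows and in 29.7% of all windows. The 5 members (Abcb6, Akr7a2, Fmo5, Gpx3 and Nqo2) were lower in SNx by sign. So were 27 of the 31 members, and the direction is thus not particular to those with this core. The HNF4 core CAAAGTCCA was in 0 of the 25 windows and in 0.391% of all windows. No match overlapped another. A match describes letters in this window and is not evidence of binding.

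The largest difference in mean log2 CPM between the groups, 6.13, was that of Ces5a (ENSRNOG00000025710), a secreted carboxylesterase known in cats as the urinary protein cauxin. Its count was 0 in each of the 5 NoOp libraries and between 4 and 1299 in the 12 SNx libraries. A count of 0 in NoOp 1, the NoOp library that is smallest after TMM scaling, allows up to 0.107 CPM (3 counts). The SNx mean of 12.8 CPM was at least 120-fold higher than that limit, which covers counting error only. With the SNx median of 8.37 CPM the bound was 78.4-fold. The rats differed widely: log2 CPM was 5.66 in SNx 2 and 5.18 in SNx 8, but -1.91 in SNx 1, -1.47 in SNx 4 and -0.19 in SNx 5, and the median was 2.94. All 12 SNx values lay above all 5 NoOp values, as they did for 13.5% of all genes. The adjusted p of edgeR's quasi-likelihood test was 0.0013. With 0 counts in NoOp, Ces5a passed the count filter through SNx libraries alone, so neither result is separate support for the rise. The 3 lowest SNx rats had 4, 8 and 19 counts.

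Gpx2 (ENSRNOG00000055672), the selenium-dependent glutathione peroxidase best known from the gut epithelium, rose in SNx. In NoOp its log2 CPM was 1.58, 3.40, 1.97, 2.35 and 1.64 in rats 1 to 5. In SNx the lowest value was 4.06, the median 5.04 and the highest 5.61. Thus the highest NoOp rat, NoOp 2, lay below the lowest SNx rat, SNx 3. The means were 2.19 ± 0.74 (SD, n = 5) and 4.98 ± 0.53 (SD, n = 12), and the log2 fold change was 2.72 (SE 0.34, edgeR adjusted p = 9.65e-06), or 6.59-fold. Gpx2 was the only 1 of the 31 members whose SD in log2 CPM was smaller in SNx than in NoOp, where NoOp 2 at 3.40 widened it. In CPM its SD was larger in SNx (10.96) than in NoOp (3.13).

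Gstm1 (ENSRNOG00000029726), a glutathione S-transferase of the mu class, rose in SNx. Its log2 CPM was 3.56, 3.48, 3.72, 3.95 and 3.73 in NoOp rats 1 to 5, and in SNx the lowest, median and highest values were 4.04, 4.68 and 5.20. The groups did not overlap. The log2 fold change was 1.03 (SE 0.18, edgeR adjusted p = 0.00016), from 3.68 ± 0.18 (SD, n = 5) to 4.67 ± 0.37 (SD, n = 12). The mu class has close paralogs, so the share of reads assigned to this copy is uncertain.

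Abcg1 (ENSRNOG00000001158), which exports cholesterol to high-density lipoprotein and is prominent in macrophages, showed the smallest rise. The values in NoOp were 4.91, 5.15, 5.29, 5.19 and 5.20 log2 CPM in rats 1 to 5, and in SNx they had a minimum of 5.36, a median of 5.83 and a maximum of 6.22. Every SNx rat was above every NoOp rat, with SNx 4, SNx 9 and SNx 11 (5.39, 5.36 and 5.36) closest to NoOp 3. The mean went from 5.15 ± 0.14 (SD, n = 5) to 5.76 ± 0.28 (SD, n = 12), with a log2 fold change of 0.64 (SE 0.13, edgeR adjusted p = 0.00074). Leukocyte markers moved with it: all 13 that have an identifier rose (the pan-leukocyte gene Ptprc by 2.18 and the macrophage gene Cd68 by 2.63 on the log2 scale), and their summed level was 7.02 to 7.71 log2 CPM in NoOp and 8.47 to 9.77 in SNx. The part of leukocytes in the rise of Abcg1 was not tested.

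**Figure D2:**
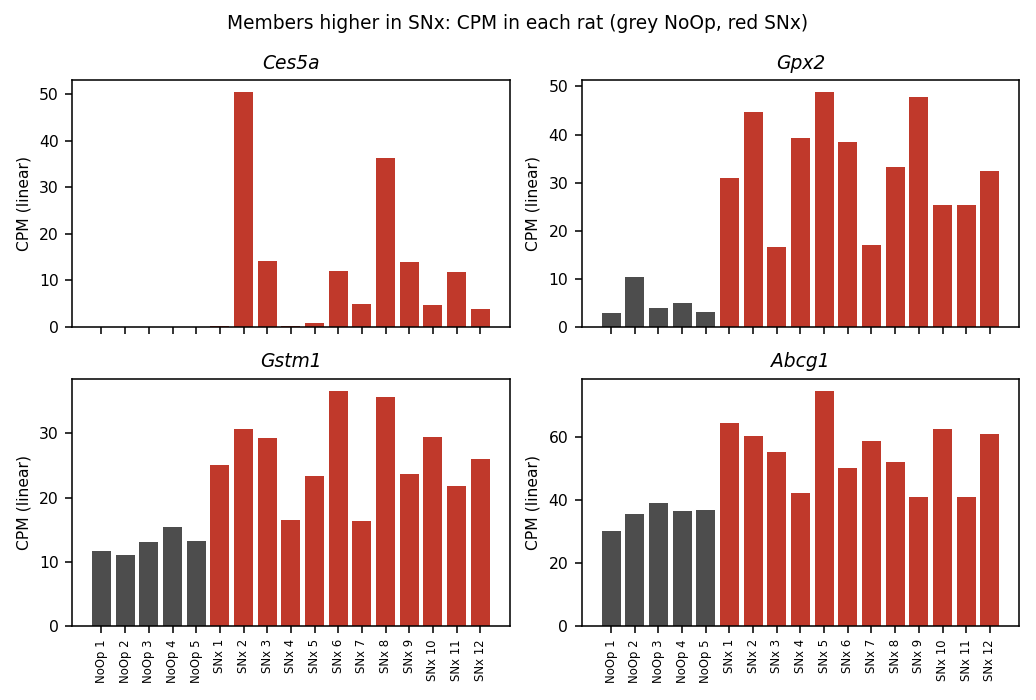
CPM (linear y axes that start at 0) of the 4 members that were higher in SNx, 1 bar per rat, with NoOp in grey and SNx in red. Ces5a has no count in NoOp and its SNx bars run from nearly 0 to above 50 CPM, while Gpx2, Gstm1 and Abcg1 are above the NoOp bars in all 12 SNx rats.

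Among the members that oxidise their substrates, all 5 cytochromes P450 and all 5 flavin monooxygenases had lower means in SNx. Their log2 fold changes ran from -1.01 (Fmo5) to -3.84. The counts include Cyp2d4 and Fmo5, which also or only came from the study 2 list, so they are a description. Cyp8b1 (ENSRNOG00000019481), the sterol hydroxylase that directs bile acid synthesis towards cholic acid in liver, had the largest fall on a low level. Its counts were 30, 24, 65, 41 and 127 in NoOp rats 1 to 5. In SNx 5 libraries had 0 counts, the other 7 had 1 to 22, and the highest of these was SNx 4. All SNx values lay below all NoOp values in log2 CPM, and the log2 fold change was -3.84 (SE 0.68, edgeR adjusted p = 0.00023). It was -3.24 without NoOp 5 and -4.81 without SNx 4, so its size rests on few counts. Cyp8b1 passed the count filter through its NoOp libraries, as SNx 4 was the only SNx library near their counts. Neither the test nor the missing overlap is therefore separate support for the fall.

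Flavin monooxygenases add oxygen to nitrogen and sulfur atoms of drugs and amines. Fmo1 (ENSRNOG00000034191), a major flavin monooxygenase of the rodent kidney, fell in SNx. Its NoOp values were 8.27, 8.48, 8.02, 8.38 and 7.77 log2 CPM, and the SNx values had a minimum of 2.91 in SNx 1, a median of 6.53 and a maximum of 7.50 in SNx 11, below all NoOp rats. Its log2 fold change was -1.81 (SE 0.51, edgeR adjusted p = 0.0062). Fmo2, best known from lung, fell by 1.58 (SE 0.26) and Fmo4 by 1.60 (SE 0.47) on the log2 scale, with no overlap for either (edgeR adjusted p = 0.00011 and 0.0080). Fmo5, which oxidises ketones rather than amines, had 5.38 ± 0.07 (SD, n = 5) log2 CPM in NoOp and 4.33 ± 0.37 (SD, n = 12) in SNx.

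Cyp2d2 (ENSRNOG00000008988), a rat drug oxidase of the subfamily that handles many basic drugs, had 7.72, 8.07, 7.60, 8.08 and 7.55 log2 CPM in NoOp. Its SNx values ran from 2.21 in SNx 1 over a median of 6.08 to 7.20 in SNx 4, again without overlap. The log2 fold change was -1.77 (SE 0.54, edgeR adjusted p = 0.010). Its paralog Cyp2d4 had 5.29 ± 0.16 (SD, n = 5) in NoOp and 3.52 ± 0.84 (SD, n = 12) in SNx, and reads can be split uncertainly between the copies of this subfamily.

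Cyp4a1 (ENSRNOG00000009597), which hydroxylates fatty acids at their end and has related copies in its subfamily, had 5.16, 6.27, 5.36, 6.23 and 5.08 log2 CPM in NoOp. The SNx rats ranged from 1.33 in SNx 1 to 4.97 in SNx 2, with a median of 3.89. The groups did not overlap, and the log2 fold change was -1.72 (SE 0.43, edgeR adjusted p = 0.0030). Cyp2e1, which oxidises ethanol and small solvents, was the least certain of the group at -1.57 (SE 0.65, edgeR adjusted p = 0.046). Only 9 of 12 SNx rats were below all NoOp rats, and the adjusted p was 0.051 to 0.14 in 12 of the 28 alternative settings, among them those without NoOp 1, 2, 4 or 5 and without SNx 6, 7, 8, 10 or 12.

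Of the hydrolases other than Ces5a, Ephx2, the soluble epoxide hydrolase that converts fatty acid epoxides to diols, fell by 1.15 (SE 0.32, edgeR adjusted p = 0.0055) on the log2 scale and was below all NoOp rats in 11 of 12 SNx rats. Ephx1, the microsomal hydrolase of drug and carcinogen epoxides, went from 7.94 ± 0.08 (SD, n = 5) to 6.99 ± 0.93 (SD, n = 12) log2 CPM. Its log2 fold change of -0.71 (SE 0.36) had an edgeR adjusted p of 0.097. SNx 4 was the 1 SNx rat above all NoOp rats for Ephx1, and without it the adjusted p was 0.045.

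All 6 reductases and dehydrogenases had lower means in SNx, with Nqo2, also on the study 2 list, among them. Akr7a2, a reductase of aldehydes such as succinic semialdehyde, fell by 1.69 (SE 0.45, edgeR adjusted p = 0.0045) on the log2 scale without overlap. The retinaldehyde dehydrogenase Aldh1a1 fell by 1.06 (SE 0.28, edgeR adjusted p = 0.0047), also without overlap. Falls were called too for the folate enzyme Aldh1l1 at -1.07, for Akr1e2 at -1.10 and for Akr1a1, the aldehyde reductase that serves ascorbate synthesis in rodents, at -0.85 (log2 fold changes, edgeR adjusted p = 0.0029 to 0.011). Nqo2, a quinone reductase, had 5.22 ± 0.13 (SD, n = 5) log2 CPM in NoOp and 3.60 ± 0.90 (SD, n = 12) in SNx.

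The transferases were divided. Gstk1 of the kappa class, found in mitochondria and peroxisomes, fell from 5.09 ± 0.13 (SD, n = 5) to 3.96 ± 0.66 (SD, n = 12) log2 CPM without overlap (edgeR adjusted p = 0.0043). Gsto1 of the omega class fell by 0.95 (SE 0.25, edgeR adjusted p = 0.0042) on the log2 scale. Gstt2 of the theta class had 6.51 ± 0.08 (SD, n = 5) log2 CPM in NoOp and 5.25 ± 0.70 (SD, n = 12) in SNx. Gsta1 of the alpha class, which has near-identical copies, went from 9.28 ± 0.23 (SD, n = 5) to 7.32 ± 1.64 (SD, n = 12), and its log2 fold change of -1.32 (SE 0.58) did not pass (edgeR adjusted p = 0.060). It ranged from 4.24 in SNx 1 to 9.18 in SNx 4, and the adjusted p was 0.033 without SNx 4, 0.045 without SNx 9 and 0.034 without SNx 11. It also passed with DESeq2 (adjusted p = 0.0498), limma-voom (adjusted p = 0.038) and limma on the deposited log2 values (adjusted p = 0.019). The sulfotransferase Sult1b1, which acts on phenols and thyroid hormones, had a log2 fold change of -0.87 (SE 0.43, edgeR adjusted p = 0.090), and the adjusted p was 0.0498 without SNx 1 and 0.039 with limma-voom.

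Glutathione genes moved in both directions. Gpx3, the plasma glutathione peroxidase that proximal tubule cells secrete, fell by 1.47 (SE 0.43, edgeR adjusted p = 0.0084) on the log2 scale, with 9 of 12 SNx rats below all NoOp rats. Gclm, the modifier subunit of glutamate-cysteine ligase, fell by 1.38 (SE 0.43, edgeR adjusted p = 0.012), with 10 of 12 below. Thus Gpx2 rose 6.59-fold in the kidneys in which the mean count of Gpx3 was 2.77-fold lower.

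Of the ABC transporters, Abcc6, which is needed for the release of ATP from liver, fell by 0.99 (SE 0.24, edgeR adjusted p = 0.0024) on the log2 scale without overlap. Abcb6, a porphyrin transporter of mitochondria and other membranes, had the smallest fall, 0.43 (SE 0.09, edgeR adjusted p = 0.0011), and 11 of 12 SNx rats were below all NoOp rats.

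Of the 27 members with a symbol from study 1 alone, 23 had lower means. All SNx rats were below all NoOp rats for 11 of them, Cyp8b1 included, and for 9.60% of all genes tested. The same held for Cyp2d4, Fmo5, Gstt2 and Nqo2, whose listing is assumed to rest in part on this contrast. Neither share was counted over the genes named from study 1 alone, which lean towards calls (42.3% lower, against 27.7% of all genes). The spread between rats was larger in SNx than in NoOp for 30 of the 31 members, with a median SD of 0.84 against 0.18 log2 CPM. The same rats stood at the ends: 24 of the 27 members with lower means had their lowest SNx value in SNx 1, and 25 had their highest in SNx 4 or SNx 11. The mean of the proximal tubule markers described below had the same ends (5.16 in SNx 1, 8.69 in SNx 4 and 8.67 in SNx 11). Spreads and ends were not counted over all genes, so they are not shown to be particular to the members. The difference of mean log2 CPM was larger than the log2 fold change for 26 of the 27 members with lower means. In a ratio of mean counts, the rats with the highest counts weigh most.

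Proximal tubule markers moved with these falls. Of 31 markers listed for this segment 25 had an identifier. Since identifiers are known only for genes the study lists, from study 1 or study 2, counts of a list lean towards called genes. A listing from study 2 is assumed to rest in part on this contrast, and such genes were not taken out of the lists. The calls of a list are therefore a description and not support. Of the 25, 0 were higher, 23 were lower and 2 (Slc17a1 and Slc17a3) did not pass the test, and no marker was at 0 in any library. Their mean was 9.23 ± 0.20 log2 CPM in NoOp (range 8.98 to 9.45) and 7.49 ± 1.12 in SNx (range 5.16 to 8.69), a difference of -1.74. By the same measure, 10 of the 27 members fell further than this mean. The part of tubule loss in the falls was not tested.

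Within the 12 SNx rats, each of the 31 members was set against the mean of these 25 markers by Pearson's r and Spearman's rho, with 100000 permutations and p-values adjusted over the 31. The marker mean and the members come from the same libraries and share their scaling. All 27 members with lower means had r above 0 with an adjusted p past the threshold (two-sided permutation test). The values ran from 0.64 for Cyp8b1 to 0.991 for Gsta1, and 23 of these members had r above 0.9. Other genes were not set against the markers, so how common such r values are among all genes is not known. Fmo1 had r = 0.991 (adjusted permutation p = 1.7e-05, raw p = 1e-05, the smallest the permutations can give) and rho = 0.993 (adjusted permutation p = 2.2e-05). Its r was 0.989 without SNx 1 and SNx 5, the rats farthest from the median of the marker mean. Within the 6 SNx rats of the lower and the 6 of the upper range of library numbers, r stayed above 0 for all 27. For Cyp8b1 it was only 0.30 in the upper range, and for Fmo5 it was 0.63 without SNx 1 and SNx 5.

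The members differed in how steeply they followed the markers. Per unit of the marker mean on the log2 scale, Cyp2e1 changed by 1.74, Gsta1 by 1.46, Cyp2d2 by 1.39 and Fmo1 by 1.30, while Gsto1 changed by 0.51, Fmo2 by 0.44, Fmo5 by 0.28 and Abcb6 by 0.16. The median slope was 0.73, and 8 of the 27 were above 1. The slope of Cyp8b1 was 0.61, with 0 counts in 5 of the 12 rats.

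The 4 members that were higher in SNx did not follow the markers in this way. Gpx2 had r = -0.10 (permutation p = 0.76, adjusted 0.76) and rho = 0.02 (permutation p = 0.96, adjusted 0.96). Gstm1 had r = -0.32 (permutation p = 0.30, adjusted 0.31) and rho = -0.34 (permutation p = 0.28, adjusted 0.30). Ces5a had r = 0.43 (permutation p = 0.16, adjusted 0.17) and rho = 0.30 (permutation p = 0.34, adjusted 0.36). Their r without SNx 1 and SNx 5 was 0.08, -0.61 and -0.19 in the same order. Abcg1 ran opposite to the markers, with r = -0.68 (permutation p = 0.015, adjusted 0.018) and rho = -0.77 (permutation p = 0.0049, adjusted 0.0054). Without SNx 1 and SNx 5 its r was -0.55 and no longer passed with 10 rats. It was -0.65 and -0.72 within the lower and upper ranges of library numbers, with 6 rats in each, and passed in neither. SNx 4 and SNx 11 had nearly equal marker means (8.69 and 8.67 log2 CPM) but Ces5a levels of -1.47 and 3.58 log2 CPM.

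**Figure D3:**
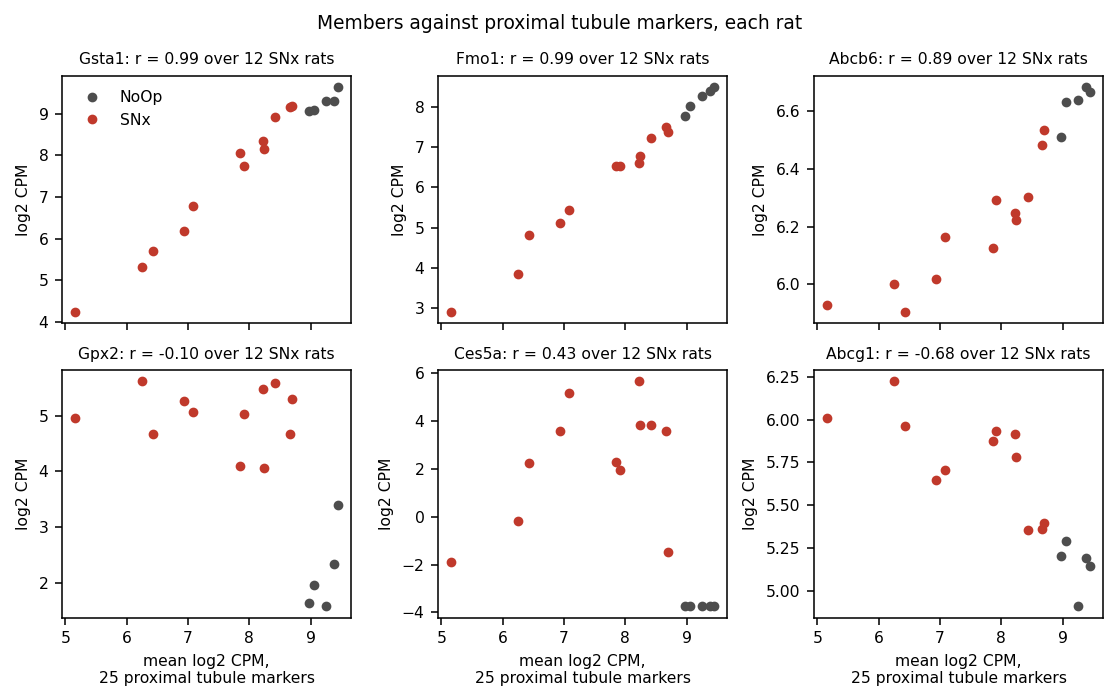
Log2 CPM of 6 members (y axes, each with its own scale) against the mean log2 CPM of 25 proximal tubule markers (x axes), 1 point per rat, NoOp in grey and SNx in red. Gsta1, Fmo1 and Abcb6 climb with the markers over the 12 SNx rats (r of 0.99, 0.99 and 0.89), Abcg1 declines (r = -0.68), and Gpx2 and Ces5a show no such line (r of -0.10 and 0.43).

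Other genes of the same pathways, from lists written by hand, gave the setting. As for the markers, only genes that the study lists, from study 1 or study 2, have an identifier, and the counts are a description. Of 20 organic ion and drug transporters 14 had an identifier, of which 11 were lower, 1 higher and 2 not past the test, with a median log2 fold change of -1.52. The proton-driven exporter of cations Slc47a1 fell by 1.50 and the organic anion transporter Slco4c1 by 1.90, while the related Slco3a1 rose by 0.80 (log2 scale).

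Of 27 other glutathione and oxidative stress genes 16 had an identifier, with 11 lower, 3 higher and 2 not past the test, and a median of -1.08. The cystine importer Slc7a11, which feeds glutathione synthesis, had 0 to 2 counts in the NoOp libraries and 20 to 141 in the SNx libraries. Hmox1, which degrades heme and is a classical stress gene, rose by 2.70 (log2 scale), and Oplah, of the glutathione cycle, fell by 1.10.

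Other detoxification and conjugation enzymes had 24 identifiers among 47 genes, and 21 were lower, 2 higher and 1 not past the test (median -1.47). Nnmt, which methylates nicotinamide, rose by 2.86, and the sulfur enzymes Mpst and Suox fell by 1.14 and 1.18 (log2 scale). Of 15 regulators of xenobiotic metabolism 5 had an identifier and all 5 were lower, with a median of -1.36. Among them were the bile acid receptor Nr1h4 at -1.09 and the pregnane X receptor Nr1i2 at -0.85 (log2 fold changes).

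Markers of other cells of the kidney were read the same way. All 8 fibroblast and matrix markers with an identifier of 18 listed rose (median log2 fold change 2.45), and their summed level was 9.29 to 9.52 log2 CPM in NoOp and 10.98 to 13.63 in SNx. Loop, distal and collecting duct markers had 3 identifiers of 26 (1 higher, 2 lower, summed level 8.20 to 8.51 and 7.26 to 8.45), and glomerular and endothelial markers 3 of 14 (1 higher, 2 lower, summed level 7.62 to 7.94 and 6.82 to 7.64). Of the leukocyte list, 13 of 23 had an identifier and had a median of 1.86. No marker of these 4 lists was at 0 in any library. Their part in the members' changes was not tested.

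**Figure D4:**
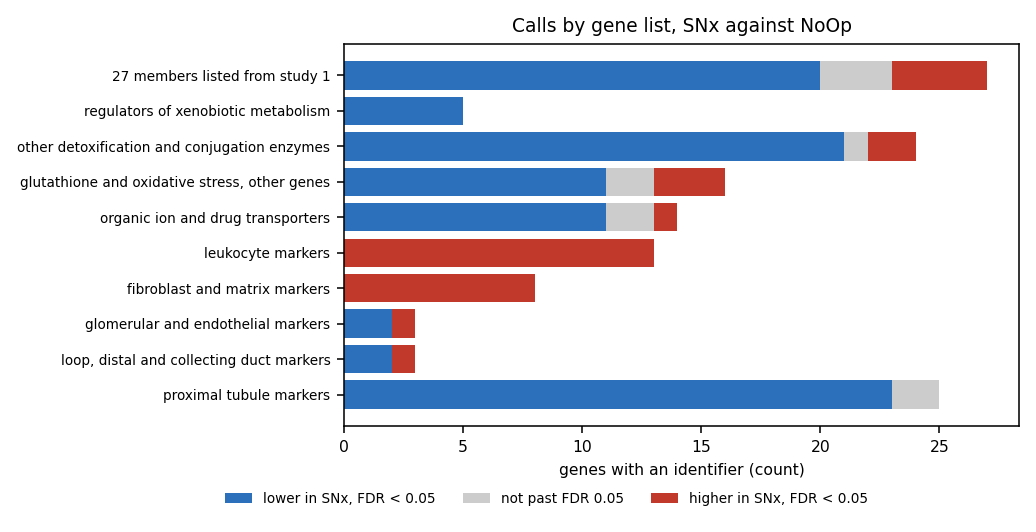
Number of genes with an identifier (x axis) in each list that were lower (blue), not past FDR 0.05 (grey) or higher (red) in SNx by edgeR's quasi-likelihood test. The 27 members listed from study 1 divide into 20 lower, 3 not past and 4 higher, and the proximal tubule list has no red segment. The other lists are not limited to study 1.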

How the data were processed

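Kidney RNA was sequenced from 12 SNx and 5 NoOp rats, grouped by the labels. Libraries were strand-specific, paired-end and depleted of ribosomal RNA. The authors quantified reads against the Rn6 transcriptome and used tximport to obtain gene-level values. The deposited counts are estimated counts, whole numbers that were not normalized. Log2 values after voom for 13318 genes were also deposited by the authors. The submitters' processing notes name Salmon and limma. Tables of the whole series (34 columns) repeat these values and were left out.

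Counts were filtered with filterByExpr, scaled by TMM and tested with edgeR 4.0.16 (glmQLFit, glmQLFTest, two-sided, Benjamini-Hochberg over 15438 genes) in R 4.3.3. All 31 members passed the filter, Ces5a through its SNx libraries alone and Cyp8b1 through its NoOp libraries. The test was tried on simulated data. Nothing states that reads carry molecular identifiers. Alternatives were DESeq2 1.42.0, limma-voom and limma on the deposited log2 values (limma 3.58.1), RLE size factors, library size alone, robust dispersions, other filters, each library left out, and either range of library numbers. All NoOp libraries are in the lower range. Symbols came from the study's own lists. Figures were drawn with matplotlib 3.10.9 in Python 3.11.15.

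Members, lists and tests were chosen with earlier results of these data known. Members are named, with values in every NoOp rat and the SNx range for those that rose and for the 5 largest falls past the threshold. A member among these falls, a listed regulator and a promoter motif are counted where totals are given but are not reported here. Of each other list at most 3 genes are named, by p-value, except for the leukocyte markers, where 2 were chosen as defining genes, and for markers named as not past the test. GRCr8 was used for sequences and gene order only.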

Additional observations from a re-analysis of the deposited data

How the results depend on the processing

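No fold change of a member changed sign. Of 865 fold changes recomputed under 28 settings 842 kept their direction and side of the threshold, 12 lost the call (all Cyp2e1) and 11 gained it (Gsta1, Sult1b1 and Ephx1). The members called lower numbered 19 to 22 and those called higher 3 to 4. Ces5a could not be fitted with 10 counts required in every library or with the lower range of library numbers alone, where the filter dropped it, and the former filter also dropped Cyp8b1. Called falls numbered 19 with the lower range and 21 with the upper range. Without SNx 1 and SNx 5, chosen after seeing the data for their low proximal tubule markers, they numbered 21.

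With library size alone, the median log2 fold change over all genes went from 0.02 to 0.23 and the share of calls that were higher in SNx from 52.2% to 74.6%, with 7044 genes called higher and 2403 lower. With RLE size factors 0 glomerular and endothelial markers and 1 other detoxification enzyme were called higher. For the relation to proximal tubule markers 173 of 186 values of r were unchanged in sign and call. The call was lost for 10, Abcg1 and members with lower means among them. Members called with r below 0 numbered 0 without the 2 farthest rats, 0 in the lower and 0 in the upper range. The sign of r turned for Ces5a (-0.19) and Gpx2 (0.084) without the 2 farthest rats and for Gpx2 in the upper range (0.18), with none past the threshold. The cause was not tested. Fold sizes of Cyp8b1 and Ces5a are limited by counts at or near 0, and the methods describe RNA integrity that ranged from strongly degraded to largely intact without naming libraries, so its part was not tested. No paired analysis was possible because the labels give the groups no shared replicate numbers.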
